A study of Mus musculus with 17 samples.

Results

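The genes encoding the proteasome and its activators were followed in the colonic mucosa of mice given dextran sodium sulfate (DSS). Members were the genes whose symbol begins with Psma, Psmb, Psmc, Psmd or Psme followed by a number, as paired with a probe set that carries a single gene symbol. The rule gave 42 members of the 18193 genes with such a probe set, and each was read from its probe set with the highest mean. The samples were 17 arrays in 6 groups, from CD4cre and WT mice on days 0 (no DSS), 2 and 7 of a challenge with 2.5% DSS in the drinking water, which injures the colonic epithelium. CD4cre mice were PPAR γ flfl and CD4Cre+, in which a recombinase driven by the CD4 promoter deletes PPAR γ from CD4+ and CD8+ T cells. WT mice were the Cre- mice, named wild-type in the paper, and both were in the C57BL/6J background. There were 3 samples in each group but the WT mice of day 7, which had 2. Nothing in the labels says whether an array held the RNA of 1 mouse or of several, so the p-values measure the spread between these samples. Age was not given in the sources used here.

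The proteasome degrades proteins that carry ubiquitin chains. Its 20S core is built from rings of alpha subunits (Psma) and beta subunits (Psmb), and 3 kinds of beta subunit, encoded by Psmb5, Psmb6 and Psmb7, carry the proteolytic sites in most cells. In cells exposed to interferon gamma and in many leukocytes these are exchanged for the inducible subunits encoded by Psmb8, Psmb9 and Psmb10, and the resulting immunoproteasome supplies peptides for MHC class I. The 19S cap, made of ATPases (Psmc) and non-ATPases (Psmd), recognizes and unfolds ubiquitinated proteins. Psme1 and Psme2 encode the PA28 alpha and beta activators, which are also inducible by interferon gamma. In the RefSeq annotation of GRCm38.p6, Psmb8 lies between Tap1 and Tap2 and Psmb9 between H2-DMb1 and Tap1, on chromosome 17, in the MHC region. Tap1 and Tap2 encode the transporter that carries peptides into the endoplasmic reticulum.

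The bases before the transcription start are printed for the inducible genes with the largest differences on day 7, Psmb8 and Psmb9, and for the constitutive genes Psmb5 and Psmb6, so that the regions can be read side by side. They are 250 bases each, 5′ to 3′ on the strand of the gene, from RefSeq on GRCm38.p6. Capitals mark a match to 1 of 3 motifs searched on both strands: TTCNNNGAA, the GAS element bound by STAT dimers, GAAA followed by any 2 bases and another GAAA, which resembles the interferon-stimulated response element, and TGACNNNGC, the core of the antioxidant response element.
Psmb8 (chr17:34197945-34198194, plus strand): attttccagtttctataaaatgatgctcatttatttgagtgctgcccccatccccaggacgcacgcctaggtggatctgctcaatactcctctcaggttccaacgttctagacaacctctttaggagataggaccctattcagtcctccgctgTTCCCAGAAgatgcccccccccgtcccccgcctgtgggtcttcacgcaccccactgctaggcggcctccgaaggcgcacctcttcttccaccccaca
Psmb9 (chr17:34187331-34187580, minus strand): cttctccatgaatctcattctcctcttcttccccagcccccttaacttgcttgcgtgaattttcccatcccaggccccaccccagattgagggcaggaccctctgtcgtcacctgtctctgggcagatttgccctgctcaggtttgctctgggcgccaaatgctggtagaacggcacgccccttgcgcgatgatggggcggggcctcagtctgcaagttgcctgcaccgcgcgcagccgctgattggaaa
Psmb5 (chr14:54617996-54618245, minus strand): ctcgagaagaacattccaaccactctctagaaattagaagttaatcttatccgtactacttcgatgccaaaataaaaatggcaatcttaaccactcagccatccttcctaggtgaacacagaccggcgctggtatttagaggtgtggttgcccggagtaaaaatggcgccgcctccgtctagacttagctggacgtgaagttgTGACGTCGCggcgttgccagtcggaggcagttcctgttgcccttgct
Psmb6 (chr11:70525107-70525356, plus strand): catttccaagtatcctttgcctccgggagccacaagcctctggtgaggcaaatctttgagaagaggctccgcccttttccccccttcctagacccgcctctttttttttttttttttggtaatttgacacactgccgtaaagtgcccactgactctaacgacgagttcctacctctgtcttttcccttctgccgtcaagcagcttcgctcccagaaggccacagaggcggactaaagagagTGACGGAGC
The match in Psmb8 is TTCCCAGAA, which starts at position -97 from the transcription start. The matches in Psmb5 and Psmb6 are TGACGTCGC at -47 and TGACGGAGC at -9. Over windows of 300 bases that also hold the first 50 bases of the transcript, the first motif was in 2 of the 37 promoters found for 35 members (Psmb8 and Psmd2) and in 8.3% of all 32851 promoters. The second was in 4 of the 37 (Psmb3, Psmd4, Psmd9 and Psme1) and in 3.44% of all promoters. The third was in 6 of the 37 (Psmb5, Psmb6, Psmc6, Psmd12, Psmd9 and Psme4) and in 12.4% of all promoters. A match describes the letters only, and binding was not measured.

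Values are log2 expression values from gcRMA, so a difference of 1 is a doubling of the signal. Signals under 3.26 were taken as background, the 95th percentile over 48 probe sets that stand for genes of other tissues, and 51.5% to 52.7% of probe sets lay above this in a sample. Of the members, 40 were above it in all 17 samples, with values between 6.06 and 13.8. Psmb11, the beta subunit of the thymic proteasome, and Psma8, the alpha subunit of the testis, were at most 2.24 and 2.49 and stayed below it. The samples also differed in ways the groups do not name. Transcripts of pancreatic enzymes had a mean of at least 12.7 in 3 samples (replicate 2 of the CD4cre mice on day 0, replicate 1 of them on day 2, and WT day 2 replicate 2), and of at most 4.59 in the others. A score of position along the gut, given by 9 posterior Hox genes less 12 anterior ones and called the Hox score here, was between 1.68 and 1.96 in WT mice on day 2 and between 0.00 and 0.99 in WT mice on day 0. On the array a lower share of a cell type and less RNA per cell cannot be told apart.

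In CD4cre mice, the inducible genes had higher group means on day 7 than on day 0, while the constitutive ones differed little. Psmb8, the inducible counterpart of Psmb5, had a mean difference of 2.01 on the log2 scale, Psmb9 of 1.68, Psme1 of 0.62 and Psmb10 of 0.56. None of the 42 members passed an adjusted p under 0.05 in limma. An unadjusted p under 0.05 was found for 8 of the 42 members and for 4757 of the 18193 genes. Over all genes, 4.35% were called higher and 4.33% lower in this comparison, and 6.62% and 30.3% after each array was centred on its median.

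In CD4cre mice, Psmb8 had values of 6.76, 7.27 and 8.63 on day 0, of 7.80, 8.02 and 8.62 on day 2 and of 10.12, 9.14 and 9.44 on day 7. In WT mice it had 8.76, 8.27 and 7.19 on day 0, 10.36, 8.46 and 8.26 on day 2 and 9.03 and 9.57 on day 7. All 3 CD4cre samples of day 7 were above the 3 of day 0, and both WT samples of day 7 were above the 3 of day 0, but 1 WT sample of day 2 was higher than all of them. The fold change on day 7 was 4.03 in CD4cre mice (95% interval of the log2 difference 0.66 to 3.36, limma adjusted p = 0.0775). It was 2.34 in WT mice (log2 difference 1.23, interval -0.28 to 2.74, limma adjusted p = 0.488). A second Psmb8 probe set had a CD4cre log2 difference of 0.92 with an SE of 0.35 (limma adjusted p = 0.15). This second probe set is of a type whose probes can match more than 1 transcript.

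Psmb9 encodes the inducible counterpart of Psmb6. Its values in CD4cre mice were 6.43, 6.06 and 7.48 on day 0, 6.49, 7.23 and 7.25 on day 2 and 9.01, 7.81 and 8.19 on day 7. The values in WT mice were 7.55, 7.88 and 7.35 on day 0, 9.08, 7.42 and 7.30 on day 2 and 7.94 and 8.29 on day 7. As for Psmb8, the samples of day 7 lay above those of day 0 in both genotypes, with a wide gap to replicates 1 and 2 of the CD4cre mice on day 0 and a narrow one in WT mice. The log2 difference was 1.68 in CD4cre mice (interval 0.60 to 2.77, limma adjusted p = 0.0669). In WT mice it was 0.52 (interval -0.69 to 1.74, limma adjusted p = 0.676).

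Psmb10 replaces Psmb7 in the core. In CD4cre mice it had 9.73, 9.81 and 10.40 on day 0, 9.87, 10.36 and 10.18 on day 2 and 11.04, 9.84 and 10.74 on day 7, so replicate 2 of day 7 lay within the range of day 0. WT values were 10.32, 10.37 and 10.33 on day 0, 10.69, 10.02 and 10.21 on day 2 and 10.51 and 10.58 on day 7. The log2 difference on day 7 was 0.56 in CD4cre mice (interval -0.050 to 1.17, limma adjusted p = 0.247) and 0.20 in WT mice (interval -0.48 to 0.89, limma adjusted p = 0.792).

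Psme1, the alpha subunit of PA28, had 10.66, 10.51 and 10.72 in CD4cre mice on day 0, 10.61, 10.86 and 10.93 on day 2 and 11.61, 10.91 and 11.23 on day 7. In WT mice it had 10.67, 10.70 and 10.82 on day 0, 11.23, 10.68 and 10.72 on day 2 and 11.07 and 11.22 on day 7. Day 7 was again above day 0 in every sample of both genotypes. The log2 difference was 0.62 in CD4cre mice (interval 0.24 to 1.00, limma adjusted p = 0.0555), the smallest adjusted p of any member in this comparison, and 0.41 in WT mice (interval -0.013 to 0.84, limma adjusted p = 0.488). The only probe set for Psme2 is paired with both Psme2b and Psme2 and so is outside the 42 members. Its mean was 11.87 in CD4cre mice on day 7 against 11.51 on day 0 (interval of the difference -0.15 to 0.87, limma adjusted p = 0.337).

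**Figure D1:**
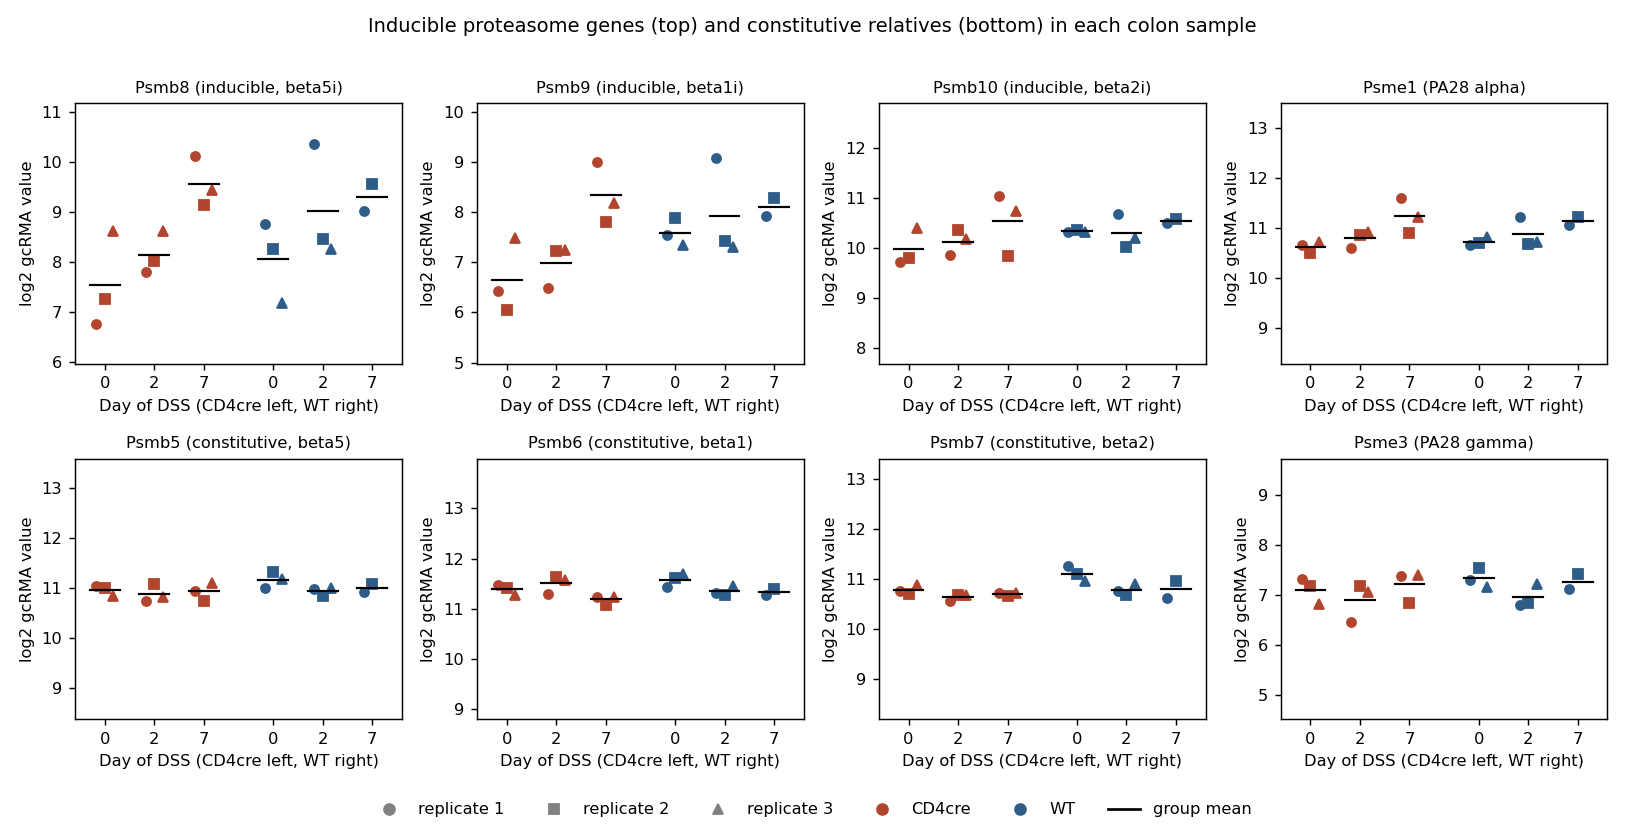
Log2 gcRMA value of 4 inducible genes (top) and 4 constitutive relatives (bottom) in each of the 17 samples, by day of DSS, with CD4cre left and WT right in every panel; points are samples, lines are group means and all axes span the same range. Psmb8 and Psmb9 sit above their day 0 samples at day 7 in CD4cre mice (means 9.57 and 8.34 against 7.55 and 6.66), whereas Psmb5 lies at 10.93 and 10.96.

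The calls on these 4 genes depended on the settings. Of 28 alternatives, Psmb8 was not called in CD4cre mice on day 7 in 23, Psmb9 in 22, Psme1 in 20 and Psmb10 in 26. With probe sets at background left out, Psmb8, Psmb9 and Psme1 passed in CD4cre mice (limma adjusted p = 0.0352, 0.0303 and 0.0313), and with 1 probe set per gene tested Psme1 passed alone (limma adjusted p = 0.0429). Without CD4cre day 0 replicate 3, Psmb8 and Psmb9 passed, without CD4cre day 7 replicate 2, Psmb10 and Psme1 did, and without WT day 2 replicate 1, which enters only through the shared spread, Psmb8, Psmb9 and Psme1 did. Under the alternatives run for them, including the Hox score as a covariate, the CD4cre differences kept their sign, from 1.46 to 2.55 for Psmb8, from 1.35 to 2.26 for Psmb9, from 0.31 to 0.94 for Psmb10 and from 0.44 to 0.84 for Psme1.

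The constitutive counterparts are paired with the inducible genes by their place in the core. Psmb5 had 10.94, 10.74 and 11.10 in CD4cre mice on day 7 against 11.03, 11 and 10.84 on day 0, a log2 difference of -0.029 (interval -0.28 to 0.22) whose sign changed when a single sample was left out. Psmb6 had 11.24, 11.08 and 11.23 on day 7 against 11.47, 11.42 and 11.26 on day 0, a difference of -0.20 (interval -0.41 to 0.015). Psmb7 had 10.73, 10.67 and 10.72 against 10.75, 10.71 and 10.89, a difference of -0.080 (interval -0.28 to 0.12). The day 7 samples thus overlapped those of day 0 for Psmb5 and Psmb7, and for Psmb6 all 3 were lower by a small margin. In WT mice the differences were -0.16, -0.24 and -0.32.

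The other members were nearly flat. The 36 constitutive or other members above background had CD4cre log2 differences on day 7 between -0.28 (Psmd5) and 0.28 (Psmd11). Of these, 18 were above and 18 below 0, with a median of 0.0089. Over the 12849 genes above background, 56.2% were negative and the median was -0.040. The 95% intervals of all 36 lay within 1 on either side of 0, and 34 of them within 0.58, which is a fold change of 1.5. By role, the median difference was -0.0078 for the 8 alpha subunits, -0.080 for the 7 constitutive beta subunits, 0.055 for the 6 ATPases of the 19S cap and -0.041 for its 14 non-ATPases. Psmd4, a ubiquitin receptor of the cap, was 0.24 higher on the log2 scale (limma adjusted p = 0.0952) and Psmd11, a scaffold subunit of the cap, 0.28 higher (limma adjusted p = 0.097). Another Psmd4 probe set, with a mean of 9.59, differed by -0.069 (limma adjusted p = 0.492). The probe sets of Psmd11 disagree, since another with a mean of 10.18 differed by -0.24 (limma adjusted p = 0.0642), and the one used for Psmd11 is of a type whose probes can match more than 1 transcript. Psme3, which encodes the nuclear activator PA28 gamma and is not among the interferon-induced activators, differed by 0.11 (interval -0.37 to 0.59). Another Psme3 probe set, with a mean of 5.84, differed by -0.64 (SE 0.36, limma adjusted p = 0.293).

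In CD4cre mice on day 7, 4 members lay wholly above and 6 wholly below the day 0 samples, beside 9.76% and 32.5% of all genes. The 4 were Psmb8, Psmb9, Psme1 and Psmd11, and the 6 included Psmb11, which was at background.

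**Figure D2:**
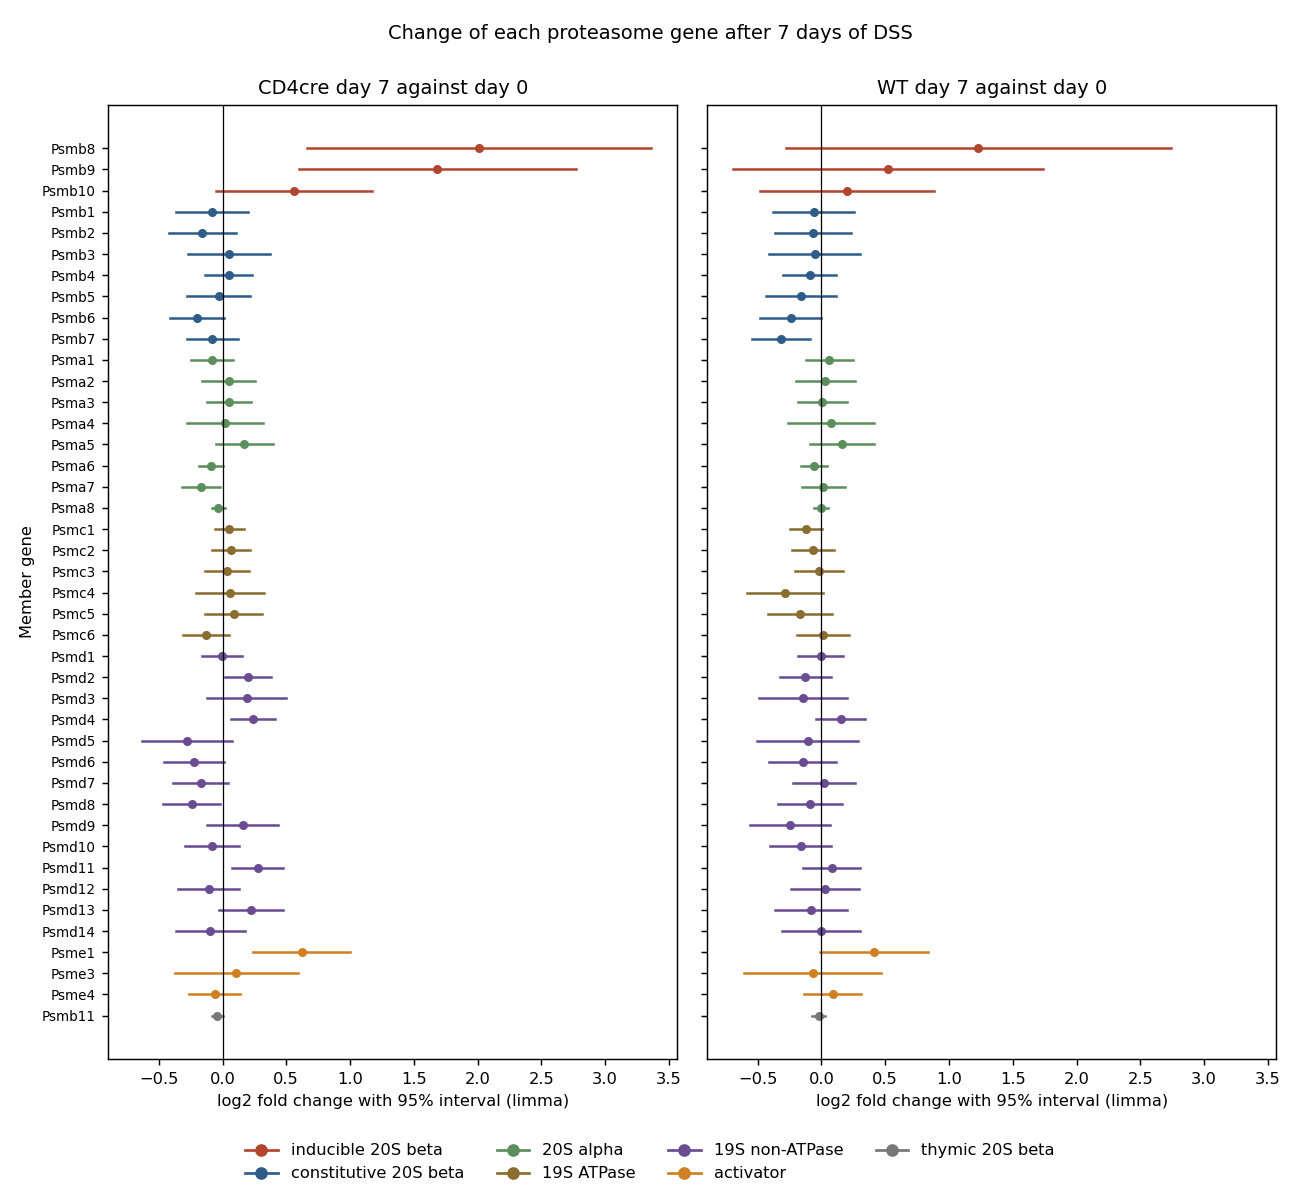
Log2 fold change of each of the 42 members on day 7 against day 0 in CD4cre mice (left) and WT mice (right), with 95% intervals from limma, ordered and coloured by role. The 3 inducible beta subunits and Psme1 have the largest differences in CD4cre mice (0.56 to 2.01), and the 36 other members above background lie between -0.28 and 0.28.

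Probe sets of 1 gene did not always move alike. The 42 members have 88 probe sets, and of the 46 that were not the highest of their gene, 3 fell and none rose in CD4cre mice on day 7, beside 3.24% of all 45037 probe sets called lower. Of these 3, 2 belong to Psmc6, an ATPase at the base of the 19S cap, and were noticed after their values were seen. The Psmc6 probe set with the lowest mean (7.56 over all samples) had 6.90, 7.14 and 6.90 in CD4cre mice on day 7 against 7.83, 7.71 and 7.89 on day 0, and fell by 0.83 on the log2 scale (SE 0.12, limma adjusted p = 0.00234). The one with a mean of 9.62 had 9.16, 9.35 and 9.14 against 9.71, 9.63 and 9.84, and fell by 0.51 (SE 0.09, limma adjusted p = 0.0063). In both, every CD4cre sample of day 7 was below the 14 other samples. The probe set with the highest mean had 10.96, 10.98 and 10.95 against 11.19, 11.09 and 11, a difference of -0.13 (interval -0.31 to 0.05, limma adjusted p = 0.34), so the Psmc6 probe sets disagree. The probe set with a mean of 9.62 is of a type whose probes can match more than 1 transcript, and its change is uncertain for that reason. Both calls were lost when only the CD4cre samples of days 7 and 0 were fitted (limma adjusted p = 0.0833 and 0.127). Between the genotypes on day 7 it was also lower in CD4cre mice, by a log2 difference of -0.57 (SE 0.10, limma adjusted p = 0.02), the only 1 of the 46 called, beside 0.806% of probe sets called lower. This call was lost without either WT sample of day 7 (limma adjusted p = 0.0776 and 0.107).

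The third that fell belongs to Psme4, which encodes the activator PA200. One of its probe sets (mean 9.27) fell by 0.41 on the log2 scale (SE 0.10, limma adjusted p = 0.0362), whereas the Psme4 probe set with the highest mean differed by -0.063 (interval -0.26 to 0.14). The latter is of a type whose probes can match more than 1 transcript. A Psme4 probe set with a mean of 10.01 differed by -0.17 (limma adjusted p = 0.245). Those with means of 4.08, 4.88 and 3.24 differed by 0.74, 0.48 and 0.20 (limma adjusted p = 0.0699, 0.222 and 0.387). The call on the probe set with a mean of 9.27 was lost in 12 of 26 alternatives. These included fits without any 1 CD4cre sample of day 0, CD4cre day 7 replicate 1 or 2, or either WT sample of day 7.

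**Figure D3:**
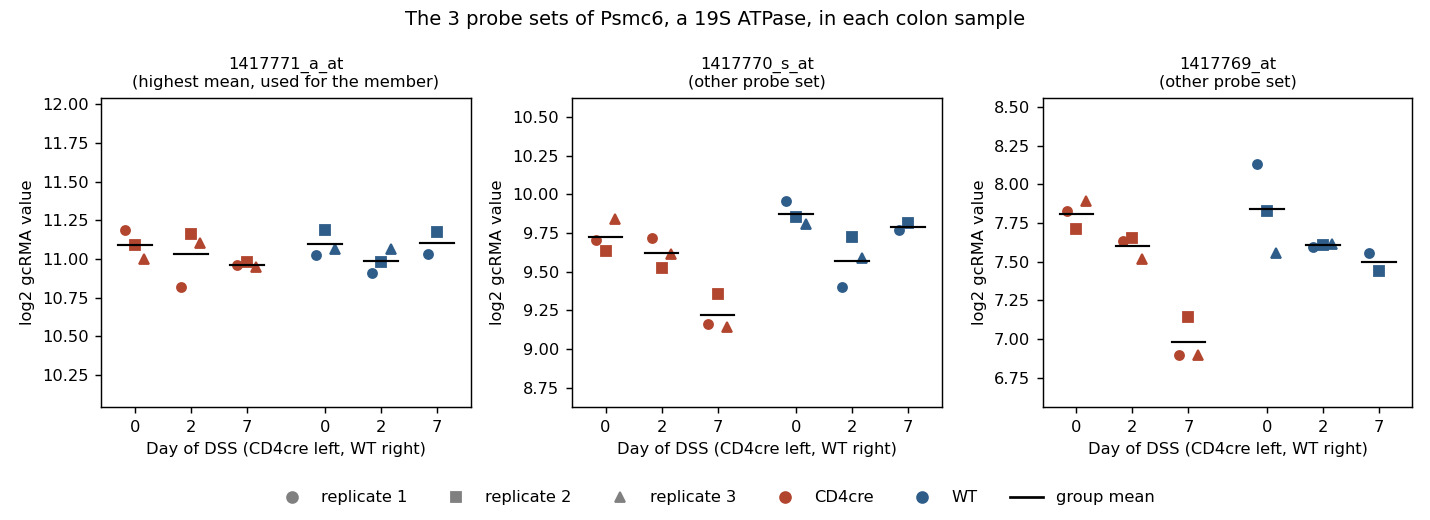
Log2 gcRMA value of the 3 probe sets of Psmc6 in each sample, by day of DSS, with CD4cre left and WT right; points are samples, lines are group means and all axes span 2 log2 units. In the middle and right panels the 3 CD4cre samples of day 7 lie below every other sample, whereas those of the left panel lie at 10.96, 10.98 and 10.95.

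In WT mice on day 7, none of the 42 members was called by limma, beside 0.104% of genes called in either direction. An unadjusted p under 0.05 was found for 2 of the 42 and for 1879 of the 18193 genes. The median over the members was -0.038. Between the genotypes, the DSS effect on day 7 differed (CD4cre minus WT) by 0.78 for Psmb8 (interval -1.24 to 2.81), 1.16 for Psmb9 (interval -0.47 to 2.79), 0.36 for Psmb10 (interval -0.56 to 1.27) and 0.21 for Psme1 (interval -0.36 to 0.78). The intervals include 0 and also differences over 1 for Psmb8, Psmb9 and Psmb10, so these samples do not settle whether the genotypes differed. For this difference limma called none of the 42, beside 0.159% of genes. At an unadjusted p under 0.05 there were 2 of the 42, and 2315 of the 18193 genes. Averaged over the genotypes, a comparison added after the values were seen, day 7 was higher than day 0 by 1.62 for Psmb8 (interval 0.61 to 2.63), by 1.10 for Psmb9 (interval 0.29 to 1.92) and by 0.52 for Psme1 (interval 0.23 to 0.80). None of the 42 was called by limma, beside 4.32% of genes. At an unadjusted p under 0.05 there were 9 of the 42, and 5517 of the 18193 genes.

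Between the genotypes on the same day, the means of Psmb8, Psmb9 and Psmb10 differed most without DSS and on day 2, and were lower in CD4cre mice. The means of Psme1 in CD4cre and WT mice were 10.63 and 10.73 on day 0, 10.80 and 10.88 on day 2, and 11.25 and 11.14 on day 7. For all 4 genes the interval of the difference included 0 on each day, so the order of the days is not settled. On day 0 the mean of Psmb9 was 6.66 in CD4cre and 7.59 in WT mice (difference -0.94, interval -2.02 to 0.15), and that of Psmb8 was 7.55 and 8.07 (difference -0.52, interval -1.87 to 0.83). On day 7 the means were close, 8.34 in CD4cre and 8.11 in WT mice for Psmb9 (interval of the difference -0.99 to 1.44) and 9.57 and 9.30 for Psmb8 (interval -1.25 to 1.78). None of the 42 members was called by limma on day 7, 2 or 0, beside 2.03%, 0.0275% and 0.011% of genes. In the same order, an unadjusted p under 0.05 was found for 4, 5 and 5 of the 42. Of the 18193 genes, 3386, 1390 and 1050 had such a p.

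On day 2 the inducible genes stood high in 1 WT sample. WT day 2 replicate 1 had the highest Psmb8 and Psmb9 values of all 17 samples (10.36 and 9.08), whereas replicates 2 and 3 were near the WT samples of day 0. The WT log2 difference on day 2 was 0.96 for Psmb8 (interval -0.39 to 2.31) and 0.34 for Psmb9 (interval -0.74 to 1.43). Psmb9 lay lower in all 3 CD4cre samples of day 2 than in the WT samples (difference -0.95, interval -2.03 to 0.14), but without WT day 2 replicate 1 this difference was -0.37, and that of Psmb8 was -0.21 without it and -0.88 with it. For WT mice on day 2 against day 0, the difference without this replicate was 0.29 for Psmb8 and -0.23 for Psmb9, and with the Hox score as a covariate it was 1.80 and 1.00. In CD4cre mice the differences on day 2 were 0.60 for Psmb8 (interval -0.75 to 1.95) and 0.33 for Psmb9 (interval -0.75 to 1.42). In CD4cre mice limma called none of the 42 members on day 2, beside 0.0165% of genes. An unadjusted p under 0.05 was found there for 1 of the 42 and for 1437 of the 18193 genes.

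The constitutive members had slightly lower values in WT mice on day 2 than on day 0, none past the test. Of the 36 other members above background, 33 had a negative difference, with a median of -0.14, against 51.7% negative and a median of -0.0072 over the genes above background. Psma6, an alpha subunit, had 12.43, 12.35 and 12.37 on day 2 against 12.52, 12.59 and 12.66 on day 0, with no overlap. Its difference was -0.21 (interval -0.30 to -0.11, limma adjusted p = 0.0644). The probe set used for Psma6 is of a type whose probes can match more than 1 transcript. Psmd3, a scaffold subunit of the 19S cap, had 7.87, 8.10 and 8.09 against 8.28, 8.36 and 8.73, a difference of -0.44 (interval -0.75 to -0.13, limma adjusted p = 0.27). None of the 42 was called by limma, beside 0.731% of genes. At an unadjusted p under 0.05 there were 9 of the 42, and 2379 of the 18193 genes. The same WT samples of day 0 serve the comparison of the genotypes without DSS, where 32 of the 36 were lower in CD4cre mice. Their median was -0.11 and the lowest value was -0.36 for Psmd3. Over the genes above background, 48.6% were negative and the median was 0.0058. The Hox score differed between days 2 and 0 in WT mice, as given above. With the score as a covariate limma called none of the 42 in this comparison, and its part in the size of these small differences was not tested. In the difference of DSS effects on day 2, 30 of the 36 were above 0, as were 6809 of the 12849 genes above background. None of the 42 was called by limma, beside 0% of genes. At an unadjusted p under 0.05 there were 7 of the 42, and 878 of the 18193 genes.

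The genes around the immunoproteasome were read from lists of its regulators, of MHC class I presentation and of proteasome assembly. Of 18 measured genes of the interferon gamma pathway, 7 rose and none fell in CD4cre mice on day 7, beside 4.35% of all genes called higher and 4.33% lower, and the median of the list was 0.90, against -0.031 over all genes. Cxcl10, a chemokine for T cells, rose by 4.11 on the log2 scale (limma adjusted p = 0.00083), Iigp1, a GTPase of cell-autonomous defence, by 3.86 (limma adjusted p = 0.00601), and Cxcl9, a related chemokine, at least 10.6-fold over the background level (limma adjusted p = 0.0328). The call on Cxcl9 was lost in 8 of 28 alternatives, among them those without any 1 of the CD4cre samples of day 0 or replicate 1 or 3 of day 7. Irf1, a transcription factor that acts on the promoters of immunoproteasome genes, had 10.34, 9.43 and 9.86 in CD4cre mice on day 7 against 8.96, 8.76 and 9.11 on day 0, and rose by 0.93 (limma adjusted p = 0.0308), a call lost in 6 of 28 alternatives (without any 1 of the CD4cre samples of day 0 or replicate 1 of day 7 among them). In WT mice Irf1 differed by 0.11 (limma adjusted p = 0.869), and none of the 18 genes was called by limma, with none at an unadjusted p under 0.05. The DSS effects on Irf1 on day 7 differed by 0.82 between the genotypes (limma adjusted p = 0.438). For this difference limma called none of the 18, beside 0.159% of genes. An unadjusted p under 0.05 was found for 7 of the 18 and for 2315 of the 18193 genes. The transcript of interferon gamma itself, Ifng, averaged 2.73 on day 7 and 2.66 on day 0 in CD4cre mice, below background.

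Of 12 genes of MHC class I presentation, 5 rose and none fell in CD4cre mice on day 7, beside the same shares of all genes. Nlrc5, a transactivator of MHC class I genes, had 7.14, 7.14 and 6.38 on day 7 against 4.46, 4.47 and 4.07 on day 0, and rose by 2.55 on the log2 scale (limma adjusted p = 0.00104). It had 4.70 and 5.22 in WT mice on day 7, below all 3 CD4cre samples, and the genotypes differed by 1.92 (limma adjusted p = 0.0238). For the same gene the DSS effects differed by 2.24 between genotypes (limma adjusted p = 0.0862). Tap2 rose by 1.2, Tapbp, which loads peptides onto class I, by 0.69, H2-D1 by 0.62 and H2-K1 by 0.61 (limma adjusted p = 0.0427, 0.0421, 0.0302 and 0.0478), and the calls were lost in 18, 16, 7 and 18 of 28 alternatives. That on H2-D1 was lost without replicate 1 or 2 of the CD4cre samples of day 0 or of day 7. The probe sets of H2-D1 and H2-K1 are of a type whose probes can match more than 1 transcript. Tap1, the neighbour of both Psmb8 and Psmb9, had 7.99, 6.68 and 6.41 in CD4cre mice on day 7 against 3.90, 4.61 and 5.20 on day 0, with no overlap and a difference of 2.46 (interval 0.96 to 3.96, limma adjusted p = 0.0544). B2m, the light chain of class I, differed by 0.53 (limma adjusted p = 0.19).

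The genes that assemble and regulate the proteasome were the next list. Of 16 measured, none rose and 1 fell in CD4cre mice on day 7, beside 4.33% of all genes. Psmg2, an assembly chaperone of the alpha ring, fell by 0.91 on the log2 scale (limma adjusted p = 0.00407). Nfe2l1, the transcription factor that raises constitutive proteasome genes when proteasome activity is low, averaged 6.29 on day 7 and 6.24 on day 0 in CD4cre mice (interval of the difference -0.18 to 0.27). Of 3 ubiquitin pathway genes, 1 rose in CD4cre mice on day 7, beside 4.35% of all genes called higher. It was Vcp, a segregase that extracts ubiquitinated proteins, which rose by 0.41 (limma adjusted p = 0.0196). This call was lost without any 1 of the CD4cre samples of day 0 or replicate 1 or 2 of day 7.

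Markers of leukocytes also differed between the groups. All 9 measured genes of monocytes and macrophages and 7 of 10 leukocyte genes rose in CD4cre mice on day 7, beside 4.35% of all genes, among them Cd68 by 3.45 and the pan-leukocyte gene Ptprc by 2.09 on the log2 scale. In CD4cre mice the mean of the macrophage list was between 7.39 and 7.55 on day 0, between 7.61 and 8.41 on day 2 and between 9.07 and 10.46 on day 7. In WT mice it was between 7.40 and 7.58 on day 0, between 8.02 and 8.54 on day 2 and between 8.26 and 8.36 on day 7, so all 3 WT samples of day 2 were above day 0, whereas the inducible genes were high in replicate 1 alone. On day 7 the median difference between CD4cre and WT mice was 1.18 over the macrophage genes and 0.16 over the 4 inducible members. These medians were -0.056 and -0.44 on day 0, so the genotypes did not start level for the inducible members. For the difference of DSS effects on day 7 (CD4cre minus WT) the medians were 1.05 and 0.57. Of 6 neutrophil genes, S100a8 and S100a9 rose in CD4cre mice on day 7, beside 4.35% of all genes called higher. Their means were 9.92 and 10.66 on day 7 against 2.65 and 2.63, below background, on day 0 (limma adjusted p = 3.41e-05 and 1.91e-05). They were also above the WT means of 5.53 and 5.80 on day 7 (limma adjusted p = 0.00432 and 0.00234), beside 167 of the 18193 genes called higher. Of 5 B cell genes, Ms4a1 and Cd79b rose in WT mice on day 2, beside 79 of the 18193 genes called higher. Their means were 6.65 and 6.39 against 3.93 and 3.77 on day 0 (limma adjusted p = 0.0287 and 0.0452). None of the 5 was called in CD4cre mice on day 7 (none at an unadjusted p under 0.05). The mean of 8 T cell genes was between 2.94 and 3.31 in CD4cre mice on day 7 and between 2.93 and 3.08 on day 0, with Cd3e, Cd8b1, Cd2 and Cd5 below background in all 17 samples and Cd8a, Cd4, Cd3d and Cd3g above it in 17, 15, 12 and 4 of them, at no more than 4.41. The mean of 11 epithelial genes was between 13.12 and 13.70 on day 7 and between 13.41 and 13.58 on day 0 in CD4cre mice, and none of them was called by limma (1 at an unadjusted p under 0.05). Epcam, an adhesion molecule of epithelial cells, averaged 13.93 on day 7 and 13.78 on day 0 in CD4cre mice. When only the CD4cre samples of days 7 and 0 were fitted, 12 genes were called in all, against 1578 with the 6 groups, and the list genes named as called on day 7 lost their calls, apart from S100a8 and S100a9, which were not followed there.

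Within the CD4cre mice of day 7 the order of the samples differed between the lists. The mean of the 4 inducible members, as a difference from the mean of the 6 day 0 samples, was 1.5 in replicate 1, 0.48 in replicate 2 and 0.96 in replicate 3. The interferon gamma pathway had list means of 8.66, 7.93 and 8.10 in the same replicates, so replicate 1 was highest and replicate 2 lowest in both. This order was not particular to them. The 36 other members above background had it too (0.017, -0.22 and 0.011), as did the mean of 11 epithelial genes (13.70, 13.12 and 13.44). The macrophage list had 9.07, 10.46 and 9.2 and the leukocyte list 8.55, 9.83 and 8.47, highest in replicate 2. The Hox score of this replicate was 1.02, against -0.11 and -0.28 in replicates 1 and 3. In WT day 2 replicate 1, the mean of the inducible members was 1.4, against 0.20 and 0.18 in replicates 2 and 3. The interferon list mean was 8.08, against 6.97 and 6.98. The macrophage list was also highest in replicate 1 of these WT samples (8.54, against 8.09 and 8.02), and so was the leukocyte list (8.35, against 8.02 and 7.83). The part of leukocyte content in the differences of the inducible genes was not tested.

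**Figure D4:**
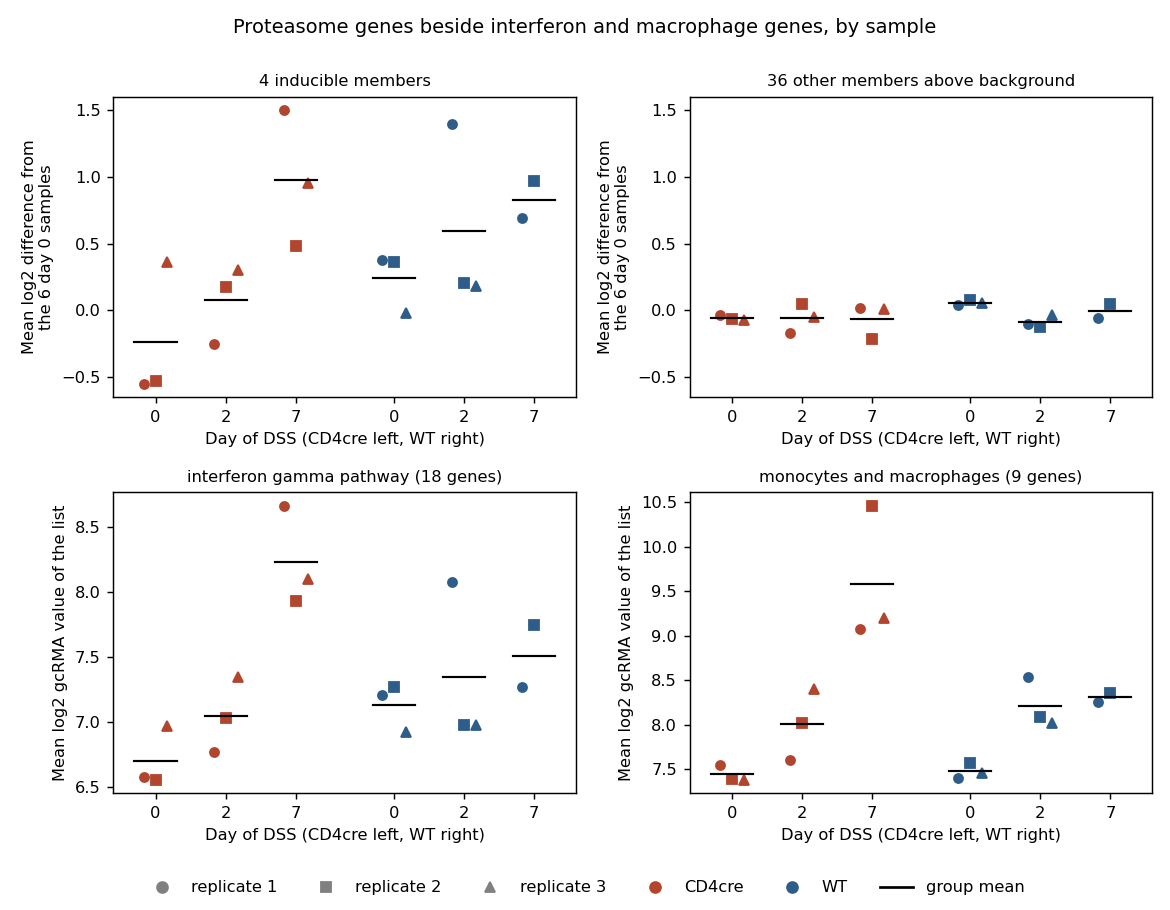
Mean log2 difference from the 6 day 0 samples of the 4 inducible members and of the 36 other members above background (top), and mean log2 value of the interferon gamma pathway and macrophage lists (bottom), in each sample by day of DSS, with CD4cre left and WT right; lines are group means. The inducible members and the interferon list are high in CD4cre day 7 replicate 1 (1.5 and 8.66) and in WT day 2 replicate 1 (1.4 and 8.08). The macrophage list is highest in CD4cre day 7 replicate 2 (10.46), and among the WT samples of day 2 in replicate 1 (8.54, against 8.09 and 8.02).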

How the data were processed

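Total RNA from the colonic mucosa of 17 samples was hybridized to Affymetrix mouse genome arrays. The authors used gcRMA (R 2.9.0), a method that corrects background by probe sequence and normalizes between arrays, and deposited log2 values for 45101 probe sets. A total of 64 controls were left out. No file holds counts, so the number of arrays limits the precision. A model of 6 group means was fitted with limma 3.58.1 (R 4.3.3) to the 45037 other probe sets with no filter (11 residual and 0.888 prior degrees of freedom), and calls were made at a two-sided adjusted p under 0.05 (Benjamini-Hochberg within a comparison). Intervals are 95% intervals of the moderated statistic. Of the probe sets, 34945 carry 1 gene, 932 several and 9160 none. The fit was tested on simulated data. Members and lists were chosen with earlier results of these data known, and the lists are described by counts, not as independent support. Genes always named are the inducible members, their counterparts, the other activators, Psmb11, Psma8 and the regulators that define a list. Beyond these, called genes with the largest changes are named, up to 3 a list, and H2-D1, H2-K1, Psmc6, Psmd3, Psmd4, Psmd11, Psma6 and Psmd5 were named after their values were seen. Samples of different groups that share a replicate number were compared: of 40 such pairs, 15 had a correlation over 0.1 (range -0.451 to 0.506). Samples with different numbers were not compared, so this does not settle whether the numbers pair the samples. No block was used in the main fit. Alternatives were other normalizations, filters, weights and thresholds, fits of fewer groups, a covariate for the Hox score, and fits without each sample or without those with pancreatic transcripts. The raw arrays were not analysed here.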

Additional observations from a re-analysis of the deposited data

How the results depend on the processing

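None of the 42 members was called in any comparison under the main settings, and this count moved with the settings. In CD4cre mice on day 7 it was 7 with array weights (all higher, including the 4 inducible genes), 7 with median centring (3 higher and 4 lower), 2 with quantile normalization, 3 with probe sets above background only, 3 with the mean of a gene's probe sets (Psmc6 lower), 1 with 1 probe set per gene, 5 at an adjusted p under 0.1, and 0 to 4 with 1 sample left out. Without CD4cre day 7 replicate 3 it was 3, and these were Psmc4, Psmd8 and Psme4, none of them inducible (1 higher and 2 lower). Averaged over the genotypes it was 9 with array weights, 3 at an adjusted p under 0.1, 2 with the trend and robust options, median centring, probe sets above background or the mean of probe sets, 1 with quantile normalization, 1 probe set per gene or the Hox covariate (Psmb11, at background), and 0 to 3 with 1 sample left out. For WT mice on day 2 it was 12 with array weights, 1 with quantile normalization, 1 probe set per gene or an adjusted p under 0.1, and 0 to 1 with 1 sample left out. Array weights, whose estimate stopped before it converged, also gave 16 for CD4cre against WT on day 0 (all lower), 3 for WT mice on day 7 and 1 for the difference of DSS effects on day 7. For CD4cre against WT on day 7 it was 1 with the mean of probe sets and 0 to 3 with 1 sample left out, and for the difference on day 7 it was 0 to 1. These counts stand beside all genes called under the same setting. In CD4cre mice on day 7 the members called were 16.7% against 16.1% of genes with array weights and 16.7% against 36.9% with median centring. They were 4.76% against 9.69% with quantile normalization, 7.5% against 16.8% above background and 7.14% against 10.9% with the mean of probe sets. With 1 probe set per gene they were 2.38% against 10.2%, and at an adjusted p under 0.1 11.9% against 13.6%. Without CD4cre day 7 replicate 2 they were 9.52% against 6.89%, and without replicate 3 7.14% against 14.1%. Without CD4cre day 0 replicate 3 they were 4.76% against 6.02%, and without WT day 2 replicate 1 7.14% against 7.33%. With array weights they were 38.1% against 23.1% for CD4cre against WT on day 0 and 28.6% against 23.2% for WT mice on day 2. The same weights gave 7.14% against 6.18% for WT mice on day 7 and 2.38% against 5.06% for the difference on day 7. Averaged over the genotypes, array weights gave 21.4% against 29.4%. The other settings there that kept every sample and called a member gave 2.38% to 7.14%, against 4.5% to 16.1% of genes. Without CD4cre day 7 replicate 2 the averaged share was 7.14% against 5.39%. Without CD4cre day 0 replicate 3 it was 2.38% against 3.84%, and without WT day 2 replicate 1 2.38% against 3.47%. For WT mice on day 2 they were 2.38% against 0.588% with quantile normalization and 2.38% against 1.64% with 1 probe set per gene. At an adjusted p under 0.1 they were 2.38% against 2.09%. CD4cre against WT on day 7 had 2.38% against 2.68% with the mean of probe sets and 7.14% against 8.43% without CD4cre day 7 replicate 3. For the difference on day 7, it was 2.38% against 3.73% without that replicate. The labels do not say whether the replicate numbers pair the samples. With a replicate block the count was 0 in every comparison, the adjusted p of Psmb8 in CD4cre mice on day 7 was 0.106, and the calls on Cxcl9, H2-K1, Tap2, Tapbp and the second Psme4 probe set were lost. Signs turned in some differences, none of them called: Psmb8 in WT mice on day 2 was -0.075 with array weights, against 0.96 without weights, Psmb10 in WT mice on day 7 was -0.087 with the Hox covariate, and with 1 sample left out Psmb5 in CD4cre mice on day 7 ranged from -0.12 to 0.066, and in WT mice on day 2 Psmb9 from -0.23 to 0.66 and Psme1 from -0.032 to 0.24. The cause of these shifts was not tested.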
